A study of Mus musculus with 10 samples.

Results

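Meiotic cohesin and the synaptonemal complex were followed through the 10 genes named Sycp1, Sycp2, Sycp3, Syce1, Syce2, Tex12, Smc1b, Stag3, Rec8 and Hormad1. The genes were chosen by name, as listed components of meiotic cohesin, the chromosome axis and the synaptonemal complex. Earlier results of these data were known when they were chosen, so shares of the list set beside those of all genes are a description. All 10 were present among the 20325 genes of the expression table. Of the 10, 9 were among the 13201 genes that reached 1 CPM (counts per 1000000 counts of a library) in 2 libraries or more and so were tested, and Tex12 was below that level. Polyadenylated RNA was sequenced from 5 mouse embryonic stem cell (mESC) lines, with 2 libraries per line and 10 in all. The study asked how the histone chaperone DAXX and the histone variant H3.3, which DAXX binds and delivers to chromatin, shape gene expression in these cells.

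In meiosis, sister chromatids are held by a specialised cohesin and folded into loops along a protein axis. The homologous axes are then joined lengthwise by the synaptonemal complex, a zipper-like structure that holds homologues together while recombination is completed. These genes are normally kept silent outside the germ line, in many cases by repressor complexes and DNA methylation at CpG-rich promoters, and embryonic stem cells are known to express some of them at low levels.

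The Daxx-/- line was of the 129/SvEv strain and is labelled as lacking DAXX, and Daxx-/-;WT, here called the DAXX rescue, was the same line carrying wild-type mouse DAXX. The H3.3 KO line was 129 x C57BL/6J. It was compared with H3.3 KO;WT, the H3.3 rescue, to which wild-type H3.3 had been returned, and with H3.3 KO;L126A-L130A, the mutant line. The last carried a form of H3.3 that the study used because it binds DAXX but is not built into nucleosomes, and whose second change the study's text writes as I130A. The transgenes were epitope-tagged and delivered by lentivirus under puromycin selection, whereas the knockout lines had no transgene. All lines were grown without feeder cells in 2i+LIF medium, which contains CHIR99021, PD0325901 and LIF. DAXX and H3.3 lines differ in strain as well as in genotype, so that their levels can be set side by side but those differences cannot be told apart.

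Total expected counts lay between 15463625 and 21396585 per library. Every library contained the naive pluripotency markers at a summed 4477 to 6673 CPM, with none of the 8 at or under 3 counts. Of 10 markers of spermatogenic cells and oocytes, 6 to 8 had at most 3 counts in each library, and Ddx4 and Zp3 were the only ones that could be tested. The knockouts could not be checked at the RNA level, as the altered parts of the genes are not given in the sources used here. Daxx transcript was counted at 77.3 and 74.4 CPM in Daxx-/- and at 195 and 208 CPM in the DAXX rescue. H3f3a, one of the genes encoding H3.3, lay at 2.94 to 11.4 CPM in the 6 libraries labelled H3.3 KO and at 390 to 498 CPM in the DAXX lines, but H3f3b, the other, was counted at 525 and 749 CPM in the line labelled H3.3 KO. By immunoblot, the paper reports no H3.3 protein in the H3.3 KO cells, and the same DAXX protein level in wild-type mESCs and the DAXX rescue. Protein was not measured in the data used here, and groups are named as labelled throughout.

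To show what the promoters share, the 250 bases before each annotated start were read from RefSeq on GRCm38.p6, which gave 12 windows for the 10 genes. Hormad1 and Syce2 have a pair of windows each that overlap, those of Hormad1 lying 2 bases apart and holding the same matches, so the 12 are not independent. The E-box searched was CACGTG, which reads the same on either strand, and the E2F-type motif was TCCCGC, with GCGGGA on the other strand. No E-box overlapped an E2F-type match in these windows. The E-box was found in 7 of 12 windows, against 6.02% of 32817 windows of all genes. The E2F-type letters were found in 8 of 12, against 16.9% of all windows, and both in 5 of 12, against 1.44%. Counted by gene, 6 of 10 had an E-box, 6 of 10 the E2F-type letters and 4 of 10 both. Each motif contains a CpG, and the windows of the 10 genes held 7 to 26 CpG with a median of 18, whereas the median of all windows was 6. Sequences of 4 genes are printed because the genes differ in the comparisons that follow: Smc1b and Hormad1 were called lower, Sycp1 came close to the threshold, and Syce1 is shown as a window with neither motif. Each is 5′ to 3′ on the gene's strand, with motif letters in capitals. Hormad1 (chr3:95559427-95559676, + strand), Sycp1 (chr3:102936101-102936350, - strand) and Syce1 (chr7:140787855-140788104, - strand) are shown for the full 250 bases. For Smc1b only 30 bases around its E2F-type letters are given (chr15:85131987-85132016, - strand).
Smc1b: aaaagaatttctTCCCGCgctttttttttt
Hormad1: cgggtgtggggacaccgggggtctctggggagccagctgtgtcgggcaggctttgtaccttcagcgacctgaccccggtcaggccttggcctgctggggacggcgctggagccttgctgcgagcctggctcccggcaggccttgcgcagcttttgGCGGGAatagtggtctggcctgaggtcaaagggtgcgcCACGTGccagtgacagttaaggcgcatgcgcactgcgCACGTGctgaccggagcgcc
Sycp1: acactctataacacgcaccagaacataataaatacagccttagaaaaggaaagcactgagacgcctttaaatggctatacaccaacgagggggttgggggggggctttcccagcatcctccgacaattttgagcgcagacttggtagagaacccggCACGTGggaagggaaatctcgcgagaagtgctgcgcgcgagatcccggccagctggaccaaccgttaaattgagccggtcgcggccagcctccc
Syce1: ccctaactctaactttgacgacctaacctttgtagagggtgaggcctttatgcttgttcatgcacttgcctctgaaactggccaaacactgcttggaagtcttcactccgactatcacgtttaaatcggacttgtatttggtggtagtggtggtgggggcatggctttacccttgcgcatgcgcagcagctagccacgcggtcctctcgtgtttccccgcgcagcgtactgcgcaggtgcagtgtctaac

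Hormad1 carried the E2F-type letters and 2 E-boxes, Sycp1 a single E-box, and Smc1b the E2F-type letters 47 to 42 bases before its start. Syce1 and Sycp2 had neither motif in their windows. A match of letters is a description of the window and was not tested for binding.

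**Figure D1:**
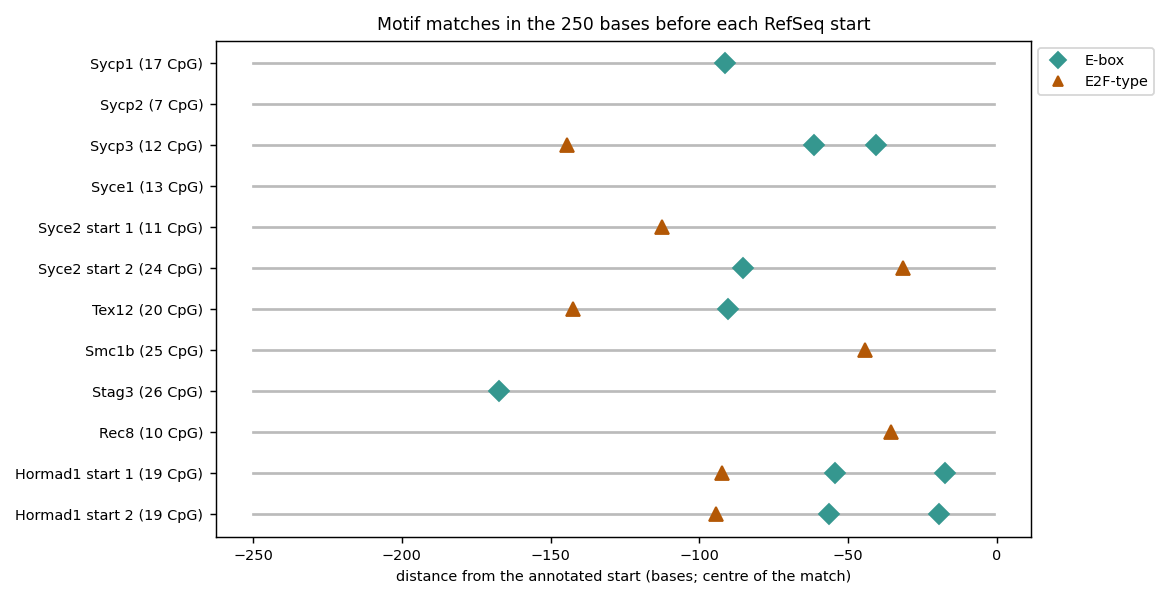
Position of each motif match in the 12 windows, in bases from the annotated start, with E-boxes as diamonds, E2F-type letters as triangles and the number of CpG in brackets. Matches lay in 10 of the 12 windows, and those of Syce1 and Sycp2 were empty.

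Levels are first described by role. Among axis proteins, HORMAD1 marks unsynapsed axes and promotes double-strand break formation. Hormad1 was at 47.2 and 61.7 CPM in Daxx-/-, 13.2 and 19.4 in the DAXX rescue, 5.26 and 10.4 in H3.3 KO, 2.96 and 5.36 in the H3.3 rescue, and 1.29 and 1.87 in the mutant line. The lines therefore followed each other in that order, and the only neighbours whose libraries overlapped were H3.3 KO and the H3.3 rescue.

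SYCP2 and SYCP3 bind each other and form the lateral elements of the synaptonemal complex. Sycp3 had its highest levels in H3.3 KO, at 57.0 and 44.5 CPM, followed by 18.0 in both libraries of the H3.3 rescue, and was at 3.43 and 12.0 CPM in the mutant line. It was at 2.91 and 18.0 CPM in Daxx-/- and at 5.19 and 7.03 CPM in the DAXX rescue. H3.3 KO stood above all other lines, and the remaining 4 overlapped with their neighbours. Of the annotated exon bases of Sycp3, 660 (52.2%) overlap Chpt1 on the opposite strand, and counting by strand is not given in the sources used here, so reads of these genes cannot be told apart there. Chpt1, a phospholipid-synthesis enzyme, was at 24.6 and 23.1 CPM in H3.3 KO, 24.3 and 25.8 in the H3.3 rescue, and 14.5 and 24.6 in the mutant line. Sycp2 was scarce, with 0.517 to 3.57 CPM over the 10 libraries, and the libraries of the mutant line (0.517 and 0.851 CPM) lay under all others.

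SYCP1 is the transverse filament that spans the gap between homologous axes. Sycp1 reached 34.5 and 45.3 CPM in Daxx-/- and 16.0 and 20.1 CPM in the DAXX rescue. In the H3.3 lines it was at 22.7 and 19.9 CPM in H3.3 KO, 12.7 and 14.3 in the H3.3 rescue, and 6.66 and 11.5 in the mutant line. Within each set of lines the libraries did not overlap.

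SYCE1, SYCE2 and TEX12 belong to the central element, which stabilises SYCP1 between the axes. Syce1 was at 37.0 and 40.9 CPM in H3.3 KO, and its other 8 libraries lay between 19.8 and 29.8 CPM. Syce2 was at 58.2 and 75.6 CPM in Daxx-/-, 41.0 and 44.1 in the DAXX rescue, 34.3 and 25.1 in H3.3 KO, 30.4 and 26.4 in the H3.3 rescue, and 46.8 and 37.1 in the mutant line. The mutant line was thus above the other H3.3 lines for Syce2, unlike for the axis genes. Tex12 had 13 and 37 counts in Daxx-/-, 7 and 10 in the DAXX rescue, 4 and 2 in H3.3 KO, 0 and 2 in the H3.3 rescue, and 0 in both libraries of the mutant line. A count of 0 there allows up to 0.194 and 0.17 CPM, counting error only, so a difference among the H3.3 lines was not detectable at this depth.

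SMC1B, STAG3 and REC8 are the meiotic counterparts of the cohesin subunits SMC1A, STAG1 or STAG2, and RAD21. Smc1b was at 50.6 and 91.9 CPM in Daxx-/- but at 5.79 and 12.1 in the DAXX rescue. It was at 16.3 and 27.4 CPM in H3.3 KO, 9.18 and 16.6 in the H3.3 rescue, and 1.55 and 4.26 in the mutant line. Daxx-/- was above, and the mutant line below, every other line.

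Stag3 was at 86.0 and 158 CPM in Daxx-/-, 89.5 and 120 in the DAXX rescue, 78.5 and 108 in H3.3 KO, 41.7 and 66.0 in the H3.3 rescue, and 14.7 and 50.1 in the mutant line. Both DAXX lines and H3.3 KO overlapped, H3.3 KO lay above the H3.3 rescue, and the H3.3 rescue overlapped the mutant line. Rec8 was at 7.37 and 15.1 CPM in Daxx-/-, 4.30 and 7.60 in the DAXX rescue, 16.2 and 14.9 in H3.3 KO, 16.5 and 17.5 in the H3.3 rescue, and 8.15 and 15.6 in the mutant line. The H3.3 rescue had Rec8 just above H3.3 KO, and the range of the mutant line took in 1 library of H3.3 KO.

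**Figure D2:**
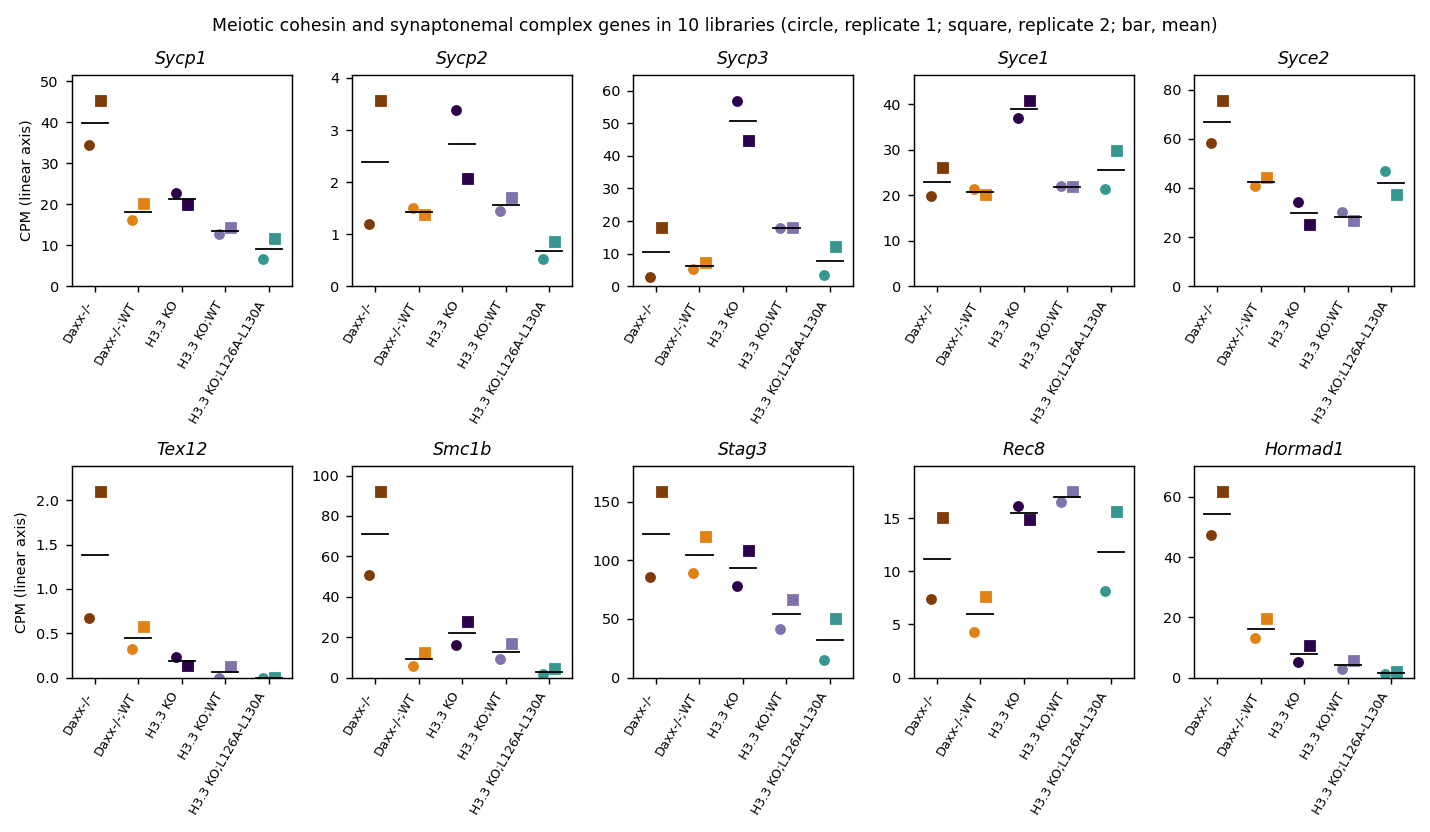
Level of each of the 10 genes in every library, in CPM on linear axes that differ between panels and start at 0, with a bar at the mean of 2 libraries. Hormad1 and Smc1b were highest in Daxx-/- (47.2 to 61.7 and 50.6 to 91.9 CPM), and Sycp3 in H3.3 KO (44.5 to 57.0 CPM).

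Levels between genes were compared per kilobase of annotated exon. In Daxx-/- the highest were Syce2 at 39.2 ± 7.22 CPM per kb (SD, n = 2), Hormad1 at 31.5 ± 5.92 and Stag3 at 29.0 ± 12.2. In H3.3 KO the order was led by Sycp3 at 40.2 ± 6.97, Syce1 at 26.7 ± 1.87 and Stag3 at 22.1 ± 4.92 CPM per kb. In the mutant line, Syce2 (24.6 ± 4.03) and Syce1 (17.5 ± 4.09 CPM per kb) were above Stag3 (7.70 ± 5.94), and Hormad1 and Smc1b were at 0.916 ± 0.237 and 0.718 ± 0.473. Syce2 and Syce1 also led the H3.3 rescue, where Syce2 was at 16.6 ± 1.66 CPM per kb and Stag3 at 12.8 ± 4.09. The means of Sycp2 and Tex12 were at most 0.478 and 1.36 CPM per kb in any line, and Tex12 was at 0 in the mutant line.

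The first comparison asked which of these genes depend on DAXX. Smc1b fell 7.88-fold when DAXX was restored (log2 fold change -2.98, SE 0.51, adjusted p = 0.0329 by edgeR's quasi-likelihood test), from a mean of 71.3 ± 29.2 to 8.95 ± 4.47 CPM (SD, n = 2). It was the only one of 9 genes called, meaning an adjusted p under 0.05 over all genes tested and at least a 2-fold difference. Calls in that direction made up 0.795% of all genes tested. Hormad1 (log2 fold change -1.73, SE 0.36, adjusted p = 0.0545) and Sycp1 (-1.12, SE 0.24, adjusted p = 0.0572) were just outside the threshold, and their groups did not overlap. Both were called as well in a fit with a term for replicate number, where 3.51% of all genes were called lower. A fit on the 4 libraries alone called 0 of the 9 genes. Syce2 was at -0.63 (adjusted p = 0.145), Rec8 at -0.89 (0.22), Sycp3 at -0.72 (0.572), Sycp2 at -0.68 (0.483), Stag3 at -0.19 (0.829) and Syce1 at -0.11 (0.748). The median of the 9 genes was -0.72 against -0.01 for all genes tested, and 4 of 9 had both rescued libraries under both knockout libraries, against 23% of all genes.

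The Smc1b call rested on each of 3 libraries, with an adjusted p of 0.0891 without Daxx-/- replicate 2, 0.323 without DAXX rescue replicate 1 and 0.0881 without DAXX rescue replicate 2. Over 12 alternative settings, the log2 fold change ran from -3.54 to -2.57 for Smc1b and from -1.98 to -1.52 for Hormad1. That of Sycp1 was negative in all 12. The settings include fits without 1 library, such as Daxx-/- replicate 1. Each fit without 1 library leaves 1 library in an arm, which is assumed to vary like the other lines. The Daxx-/- libraries differed from each other, since all 10 genes were lower in replicate 1, with a median difference of -0.85 on the log2 scale against -0.10 for all genes. Of the marker lists for other cells, the primitive endoderm sum was 23.2 CPM in Daxx-/- replicate 2, against 7.52 in replicate 1 and 5.23 and 8.43 CPM in the DAXX rescue. The fibroblast sum was 25.8 and 41.8 CPM in Daxx-/- and 11.7 and 17.5 in the DAXX rescue, with 3 or 4 of its 6 genes at or under 3 counts. Whether other cells had a part in the result was not tested, and in bulk RNA a change in the share of cells cannot be told apart from a change per cell.

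In the comparison of wild-type H3.3 with the H3.3 knockout, none of the 9 genes was called by edgeR in the fit over 10 libraries, by DESeq2 or by limma, while 22 genes, 0.167% of those tested, were called lower. At an unadjusted p under 0.05 there were 3, beside 1754 of the 13201 genes tested. The 3 were Syce1 (log2 fold change -0.79, adjusted p = 0.157), Sycp1 (-0.62, adjusted p = 0.31) and Hormad1 (-0.88, adjusted p = 0.357). Sycp3 had the widest difference of the 9, at -1.46 (SE 0.68, adjusted p = 0.404), with means of 18.0 ± 0.0079 and 50.8 ± 8.81 CPM. In an edgeR fit on these 4 libraries alone Sycp3 was called, where 2.06% of all genes were called lower. Its adjusted p was 0.00504 there, against 0.404 in the edgeR fit over 10 libraries. Stag3 (-0.76, adjusted p = 0.539), Sycp2 (-0.77, 0.598) and Smc1b (-0.74, 0.565) were near the median of the 9, -0.76, and Syce2 (-0.03) and Rec8 (0.17) were near that of all genes, 0.02. The rescued libraries lay under the knockout libraries for 5 of 9 genes, against 29.7% of all genes tested.

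The H3.3 mutant was compared with the same H3.3 KO libraries, so that the differences are not independent of those above. Smc1b fell 7.23-fold (log2 fold change -2.85, SE 0.53, adjusted p = 0.0475 by edgeR) and Hormad1 4.71-fold (-2.24, SE 0.41, adjusted p = 0.0449), 2 of 9 genes where 0.614% of all genes were called lower. Mean levels went from 21.9 ± 7.86 to 2.90 ± 1.91 CPM for Smc1b and from 7.83 ± 3.63 to 1.58 ± 0.410 CPM for Hormad1. Sycp1 was at -1.18 (SE 0.24, adjusted p = 0.0613), Sycp3 at -2.68 (SE 0.72, adjusted p = 0.11), Sycp2 at -1.93 (SE 0.58, adjusted p = 0.147) and Stag3 at -1.49 (SE 0.47, adjusted p = 0.167). Syce1 was at -0.55 (adjusted p = 0.187) and Rec8 at -0.34 (adjusted p = 0.692), whereas Syce2 was higher in both mutant libraries, at 0.57 (SE 0.22, adjusted p = 0.231). The median of the 9 was -1.49 against 0.04 for all genes tested, and 7 of 9 had both mutant libraries under both knockout libraries, against 27% of all genes.

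Both calls were lost when any of the 4 libraries was left out. The adjusted p of Smc1b was then 0.0964 and 0.286 without H3.3 KO replicates 1 and 2, and 0.281 and 0.0504 without mutant replicates 1 and 2. That of Hormad1 was 0.0703 and 0.271 without H3.3 KO replicates 1 and 2, and 0.29 and 0.0848 without mutant replicates 1 and 2. Over 12 alternative settings, the log2 fold change of Sycp1 ran from -1.55 to -0.88 and that of Stag3 from -2.53 to -0.89. Each fit without 1 library again leaves a lone library that is assumed to vary like the other lines. The mutant libraries differed by a median of -0.71 against -0.11 for all genes, with 8 of 10 genes lower in replicate 1. In each rescue line 8 of 10 were also lower in replicate 1, against 60.1% (DAXX) and 60.3% (H3.3) of all genes. The medians were -0.38 with DAXX and -0.13 with H3.3, against -0.08 and -0.06 for all genes. In H3.3 KO 4 of 10 were lower in replicate 1, with a median of 0.12 against -0.01 for all genes. With TMM factors only Hormad1 was called, and with library size alone or in a fit on the 4 libraries neither gene was. DESeq2 called Sycp3 and Stag3 as well as Smc1b, Hormad1 and Sycp1, where it called 2.75% of all genes lower. The primitive endoderm sum was 7.25 and 13.9 CPM in H3.3 KO and 6.47 and 9.93 CPM in the mutant line. The fibroblast sum, again mostly Thy1, was 11.1 and 8.78 CPM in H3.3 KO and 4.07 and 10.5 CPM in the mutant line. The part of other cells in the result was not tested.

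Mutant and wild-type H3.3 were then set against each other. None of the 9 genes was called by edgeR in the main fit (0.265% of all genes tested were called lower) or by limma. At an unadjusted p under 0.05 there were 4, beside 1633 of the 13201 genes tested. DESeq2 called 1, Smc1b, where it called 1.44% of all genes lower. With a term for replicate number, edgeR called Smc1b and Hormad1 (1.12% of all genes lower). With TMM factors, library size alone, no filter or the 4 libraries alone, edgeR called none of the 9. Smc1b was at a log2 fold change of -2.12 (SE 0.53, adjusted p = 0.131), Hormad1 at -1.36 (SE 0.41, adjusted p = 0.209) and Sycp1 at -0.55 (adjusted p = 0.401). Sycp3 was at -1.21 (0.552), Sycp2 at -1.16 (0.482), Stag3 at -0.73 (0.624) and Rec8 at -0.51 (0.69). Syce1 and Syce2 had positive values of 0.24 (adjusted p = 0.711) and 0.60 (adjusted p = 0.3). Libraries of the mutant lay under those of the wild-type rescue for 6 of 9 genes, against 24.2% of all genes.

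**Figure D3:**
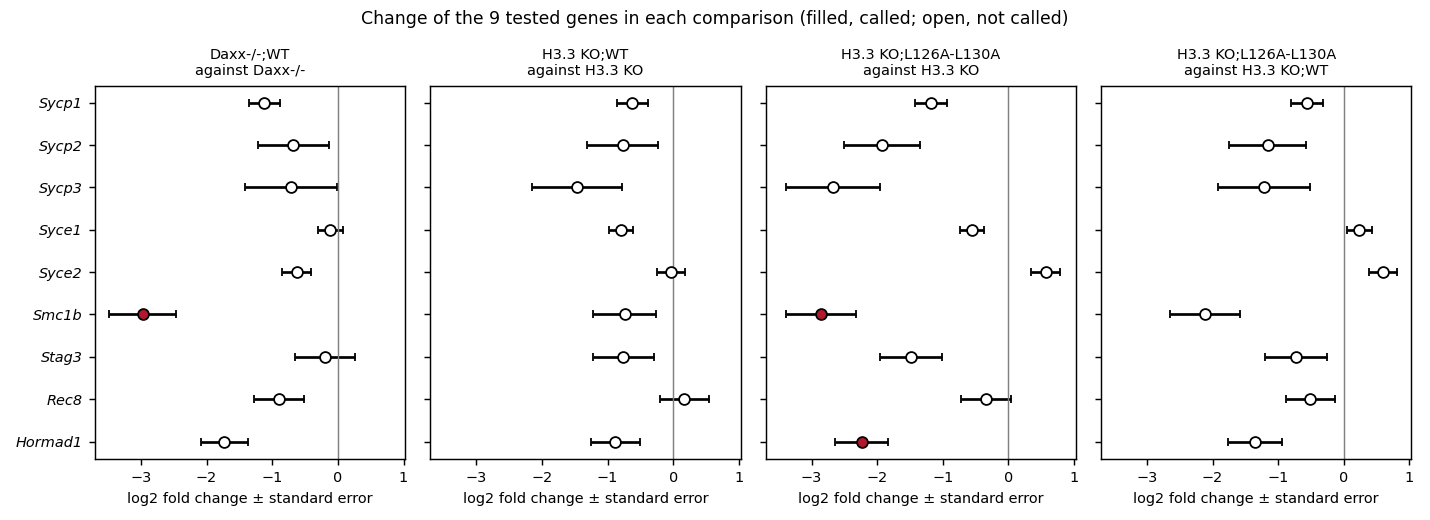
Log2 fold change and standard error of the 9 tested genes in the 4 comparisons, with filled points for genes called. Smc1b was called with DAXX (-2.98) and with the H3.3 mutant (-2.85), Hormad1 with the mutant only (-2.24), and Syce2 lay to the right of 0 in both mutant comparisons.

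Meiotic cohesin genes were set against the mitotic genes of the same families, as the share of the family's CPM per kb. Smc1b made up 26.5% ± 8.25 (SD, n = 2) of Smc1b plus Smc1a in Daxx-/-, 4.33% ± 2.07 in the DAXX rescue, 8.28% ± 3.34 in H3.3 KO, 5.11% ± 2.17 in the H3.3 rescue and 1.09% ± 0.627 in the mutant line. The Stag3 share of Stag1, Stag2 and Stag3 was 44.2% ± 11.8 and 36.1% ± 4.29 in the DAXX lines. In the H3.3 lines it was 37.0% ± 7.14 in H3.3 KO, 26.1% ± 9.18 in the H3.3 rescue and 15.7% ± 11.1 in the mutant. Between the DAXX lines the libraries overlapped in the share of Stag3 but not of Smc1b. The Rec8 share of Rec8, Rad21 and Rad21l was under 10% throughout, between 2.92% ± 1.11 in the DAXX rescue and 6.36% ± 0.580 in the H3.3 rescue, and Rad21l had 0 to 7 counts.

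**Figure D4:**
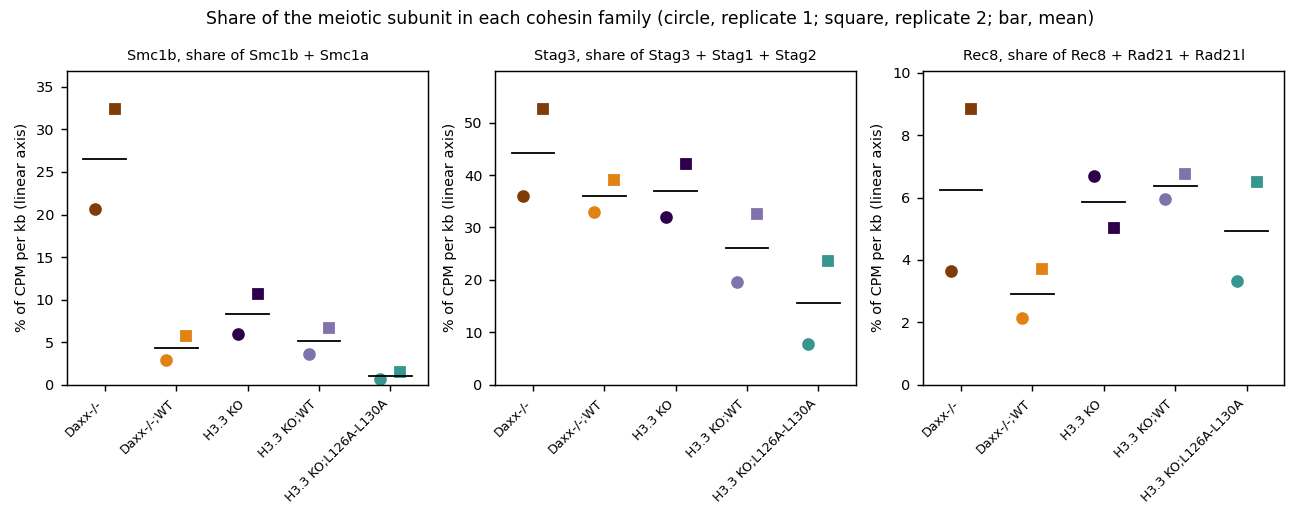
Share of Smc1b, Stag3 and Rec8 in the CPM per kb of its cohesin family, in percent on linear axes from 0, per library with a bar at the mean. The share of Smc1b was 26.5% in Daxx-/- and 1.09% in the H3.3 mutant line, and that of Rec8 averaged 2.92% to 6.36%.

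Of 13 genes for mitotic cohesin, its loaders and regulators, none was called in any comparison by edgeR, DESeq2 or limma, and 1, 0, 0 and 0 had an unadjusted p under 0.05. Their medians were 0.16, 0.02, 0.14 and 0.10 with DAXX, wild-type H3.3, the mutant, and the mutant against wild-type. Rad21, the most abundant of them, was at 0.18, 0.02, -0.07 and -0.09 (log2 fold change) in these comparisons, with adjusted p from 0.595 to 0.978.

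Other genes of meiotic prophase were taken from a list of 32, of which 31 were in the table and 24 could be tested. Tex15, required for meiotic recombination and transposon silencing in male germ cells, was the only one called by edgeR. It fell with wild-type H3.3 (log2 fold change -1.36, SE 0.19, adjusted p = 0.0333), from 27.7 and 23.3 CPM in H3.3 KO to 10.5 and 8.85 CPM in the H3.3 rescue, and stood at 17.5 and 21.1 CPM in the mutant line. With DAXX none was called by edgeR, DESeq2 or limma (3 at an unadjusted p under 0.05, beside 2847 of the 13201 genes tested). In the mutant against H3.3 KO edgeR called none, with 8 at an unadjusted p under 0.05 (2219 of the 13201 genes tested). DESeq2 and limma each called 3 lower, named here after their values were seen: Stra8, Hormad2 and 4930447C04Rik. Of all genes, DESeq2 called 2.75% lower, and limma 1.08% or 1.13% by the value added before logs. In the mutant against wild-type, edgeR and limma called none, and 9 had an unadjusted p under 0.05 (1633 of the 13201 genes tested). DESeq2 called 3, Hormad2 and Stra8 lower and Tex15 higher, where it called 2.49% of all genes. The median log2 fold changes of the 24 were -0.40, -0.16, -0.77 and -0.57, beside -0.72, -0.76, -1.49 and -0.73 for the 9 tested genes of the main list.

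Hormad2, the paralogue of Hormad1, was at 6.85 and 12.6 CPM in H3.3 KO, 4.36 and 9.27 in the H3.3 rescue and 0.582 and 1.42 in the mutant line (log2 fold change -3.21, SE 0.62, adjusted p = 0.0538 against H3.3 KO). Stra8, the retinoic acid-induced gene of meiotic entry, had 260 and 282 counts in H3.3 KO, 57 and 87 in the H3.3 rescue, and 0 and 20 in the mutant line (adjusted p = 0.0543 against H3.3 KO). The mutant libraries were under the others for both genes. Sgol2, which protects centromeric cohesion and is also used in mitosis, was the most abundant of the list, at a log2 fold change of 0.29 in the mutant against H3.3 KO (adjusted p = 0.308).

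A list of 16 known repressors of germline promoters (the E2F6 and MGA complex, DNA methyltransferases and H3K9 methyltransferases among them) had medians of 0.12, -0.01, 0.20 and 0.28. None was called by edgeR or limma. At an unadjusted p under 0.05 there were 1, 2, 3 and 5, beside 2847, 1754, 2219 and 1633 of the 13201 genes tested. DESeq2 called only Dnmt3b, in both mutant comparisons, where it called 3.44% and 2.49% of all genes. Uhrf1, the most abundant, was at 0.13 in the mutant against H3.3 KO (adjusted p = 0.622). Dnmt3b, a de novo DNA methyltransferase named after its values were seen, was at 268 and 102 CPM in the mutant line, 64.4 and 61.2 in H3.3 KO, and 51.9 and 52.8 in the H3.3 rescue (log2 fold change 1.65, SE 0.48, adjusted p = 0.14 against H3.3 KO). In the DAXX lines it was at 80.9 and 44.8 CPM in Daxx-/- and 136 and 83.8 CPM in the DAXX rescue. In Daxx-/-, the DAXX rescue and the mutant line, Dnmt3b was higher and Smc1b, Hormad1, Sycp1 and Stag3 were lower in replicate 1 than in replicate 2. Of all genes tested, 57.7%, 60.1% and 61.5% were lower in replicate 1 of these lines. Syce2 went the other way in the mutant line (46.8 and 37.1 CPM), as did Syce1 and Sycp2 in the DAXX rescue. Smc1b, Hormad1, Sycp1 and Stag3 were also lower in replicate 1 of the H3.3 rescue, but Dnmt3b hardly differed there (51.9 and 52.8 CPM). In H3.3 KO, with Dnmt3b at 64.4 and 61.2 CPM, Smc1b, Hormad1 and Stag3 were lower and Sycp1 higher in replicate 1. The part of Dnmt3b in the results was not tested.

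**Figure D5:**
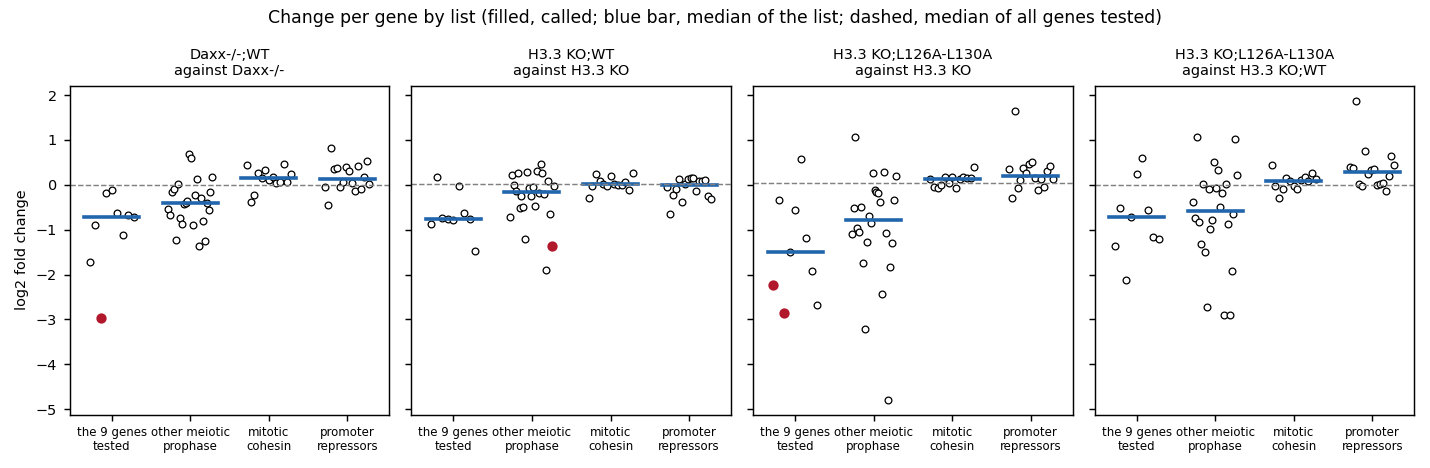
Log2 fold change of every tested gene in 4 lists for the 4 comparisons, with medians as blue bars, the median of all genes dashed and called genes filled. Medians of the 9 tested genes of the main list (-0.72, -0.76, -1.49 and -0.73) lay under those of mitotic cohesin (0.16, 0.02, 0.14 and 0.10) in each panel.

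The genes did not follow a single pattern over the 10 libraries. Among 36 pairs of the 9 genes with a mean of at least 1 CPM, Pearson's r of log2(CPM + 1) ran from -0.53 to 0.94 with a median of 0.37, and 6 pairs were negative. Libraries of a line share genotype and strain, so these values are a description of the 5 lines. Genes outside the list whose pattern was most like each member's were Mageb4 (r = 0.990), AV320801 and Gm15023 (both 0.987, with identical values in every library) for Hormad1, and Tuba3b (0.985), Gm15107 (0.976) and Scml2 (0.972) for Smc1b. For Stag3 they were D6Mm5e (0.984), Gpat2 (0.957) and Dopey2 (0.957), and for Sycp1 they included Kcnk1 (0.990) and Slc25a31 (0.980). Taf7l was second for Sycp2 (0.937), and the best matches of Sycp3, Syce1, Syce2 and Rec8 were Adcy5 (0.961), 6030405A18Rik (0.973), Acer2 (0.986) and Slc25a30 (0.984).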

How the data were processed

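The deposited table held RSEM expected counts per gene, which the authors made with Bowtie and RSEM against mm9, per the submitters' processing notes. Versions and annotation are not given in the sources used here. Its name gives another unit, but the columns sum to unequal totals. Expected counts were rounded and tested with edgeR 4.0.16 (quasi-likelihood, R 4.3.3) in a single fit over 10 libraries with median-of-ratios factors, for the 13201 genes that 2 or more libraries held at 1 CPM or above. Calls needed a 2-fold difference and p below 0.05 after Benjamini-Hochberg adjustment. CPM used library totals, and lengths were annotated exons on GRCm38. Alternatives were TMM or library-size scaling, no filter, DESeq2 1.42.0, limma 3.58.1, a replicate block, and leaving out libraries. The fit was checked on simulated data with the same dispersion for every gene and no replicate effect. The gaps between the replicates of these lines were not part of that check. The paper calls the 2 libraries per line biological replicates, without saying how they were separated, so p-values measure the spread between these libraries. Besides the 10 genes, the rule named list genes called in any comparison or most abundant in their list, and the 3 tested genes most correlated with each member, of which 1 is not reported here. Members and lists were chosen with earlier results of these data known. Promoters came from RefSeq (GRCm38.p6), and all 10 genes matched. Intervals cover counting error only.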

Additional observations from a re-analysis of the deposited data

How the results depend on the processing

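The number of the 9 genes called was 1 with DAXX, 0 with wild-type H3.3, 2 with the mutant against H3.3 KO and 0 with the mutant against wild-type H3.3. With DAXX it was 3 without a filter, with DESeq2 and with limma on log2(CPM + 1), and 0 in a fit on the 4 libraries alone. It also changed when 1 library was left out. With wild-type H3.3 it changed only in the fit on 4 libraries, to 1, Sycp3. With the mutant against H3.3 KO it was 1 with TMM factors, 0 with library size alone, 5 with DESeq2, 0 in the fit on 4 libraries, and 0 to 2 when 1 library was left out. Without a filter and with limma it was 3. DESeq2 gave 1 in the mutant against wild-type. The causes were not tested. In 0 of the alternatives was any of the 9 called higher.

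Direction turned in 7 of 432 single-gene values, none of them called. With 1 library left out, the DAXX differences ran from -1.22 to 0.20 for Sycp2, -1.48 to 1.00 for Sycp3, -0.233 to 0.010 for Syce1 and -0.51 to 0.22 for Stag3, each positive only without Daxx-/- replicate 2. Syce2 with wild-type H3.3 ran from -0.24 to 0.22 and was positive, at 0.22 and 0.10, without H3.3 KO replicate 1 and without H3.3 rescue replicate 2. Rec8 with the mutant against H3.3 KO ran from -0.80 to 0.010, positive only without mutant replicate 1.

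Replicate numbers were not shown to pair libraries: deviations from the line means correlated at over 0.1 in 7 of 10 pairs of lines (r from -0.05 to 0.56). The pairs at or under 0.1 were those of H3.3 KO with Daxx-/-, the DAXX rescue and the mutant line (r = -0.05, -0.02 and 0.06). Among the lines other than H3.3 KO, r ran from 0.25 to 0.56, and it was 0.56 between the DAXX lines. With the replicate block, 3, 0, 5 and 2 of the 9 genes were called in the 4 comparisons (Smc1b, Hormad1 and Sycp1 with DAXX, these with Sycp3 and Stag3 in the mutant against H3.3 KO, and Smc1b and Hormad1 in the mutant against wild-type), and 618, 106, 459 and 245 of all genes.

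Over all genes, the number called was 144, 27, 105 and 66. It ranged over the alternatives from 1 to 1106, 1 to 356, 2 to 459 and 0 to 329. Without a filter the counts were 226, 53, 202 and 120, with DESeq2 535, 214, 454 and 329, with limma on log2(CPM + 1) 233, 55, 180 and 96, with limma on log2(CPM + 0.1) 182, 36, 183 and 96, and in fits on 4 libraries 1, 356, 47 and 22. Library size alone moved the mutant against wild-type from 31 higher and 35 lower to 23 and 16. With 2 libraries per line and wide gaps between them, calls near the threshold were decided by single libraries.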
